A study of Homo sapiens with 12 samples.

Results

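The 9 genes described here encode replication protein A (RPA), its import factor and other human proteins that bind single-stranded DNA. They are RPA1, RPA2, RPA3, RPAIN, SSBP1, NABP1, NABP2, PURA and RADX. Probe sets were taken where the annotation of the array gave 1 gene symbol and that symbol was one of these, which selected 26 of 54675 probe sets on the array. Probe sets were picked by gene symbol and not by signal, but the genes themselves were chosen with earlier results of these data known. RPA1 was included as the transcript that the study reports as a target of CU1276, a small RNA cut from a tRNA.

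The samples were 12 RNA extracts of 293T, an embryonic kidney line of human origin that carries the large T antigen of a simian virus, with 1 array for each. Cells had been transfected with the polyethylenimine reagent and were collected 48 hours later. There were 4 biological replicates each of a hairpin vector, which carries a hairpin for CU1276, of a tRNA vector, which carries chr1.tRNA68-Gly(GCC), the tRNA gene that CU1276 comes from, and of an empty vector. All 12 samples were thus transfected with a plasmid, and the labels do not say which promoter drove the inserts, what share of cells took up the plasmid or whether replicates were grown on separate days, so p-values measure the spread between these samples.

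RPA coats single-stranded DNA when the double helix is opened for replication or repair, protects it from nucleases and gathers the proteins that act there. RPA1 is the large subunit and holds most of the contacts with DNA, RPA2 is the subunit phosphorylated after DNA damage, RPA3 is the small subunit that holds the trimer together, and RPAIN carries RPA into the nucleus. SSBP1 does the coating work in mitochondria, NABP1 and NABP2 are nuclear proteins that act at DNA breaks as part of the SOSS complexes, PURA binds purine-rich single strands of DNA and RNA, and RADX binds single-stranded DNA at replication forks.

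Of the 26 probe sets, 20 passed the brightness filter, a geometric mean signal of 43.3 over the 12 arrays, and these covered all 9 genes. The 6 dim ones were 3 for RPAIN, 2 for PURA and 1 for RADX. The deposited values are MAS5 signals, a brightness per probe set on a linear scale, and levels of different probe sets were not set against each other because each binds with its own strength. A probe set name that ends in _s_at or _x_at stands for probes that can bind more than 1 transcript or cross-hybridise. Of 8 markers listed for the 293T line 7 passed the same filter, among them the neurofilament gene NEFM (3872 to 5486 over the arrays) and the keratin gene KRT18 (2110 to 2633), and of 5 T cell and myeloid markers 0 did. Markers of other cells that passed were 3 of 4 for B cells, 3 of 4 for fibroblasts and 1 of 2 for erythroid cells, and the summed signal of each list overlapped between the vectors. Each marker was read by its brightest probe set, and the filter leaves out only the dimmest 40% of probe sets. Passing it therefore does not show expression, and the B cell markers that passed had geometric means of 52.0 to 110. Median signals of the arrays lay between 75.9 and 104. The 27 probe sets for Bacillus control RNAs, spiked in at the labelling step, averaged between 1726 and 1834 on arrays numbered 1, between 331 and 389 on arrays numbered 2 and at most 26.1 on the rest. Each of these levels holds the 3 vectors in equal numbers, and other differences between replicate numbers cannot be told apart from them. The ratio of GAPDH control signal at the 3' end to that at the 5' end also differed. It was 1.47 to 1.67 on arrays numbered 1 and 1.18 to 1.39 on the rest, and its effect on other signals was not tested.

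No probe set of these genes passed the test in any comparison. The test was limma on log2 signals with Benjamini-Hochberg adjustment over 32768 probe sets, and 0 of the 20 member probe sets had an adjusted p under 0.05 for the hairpin vector against the empty vector, the tRNA vector against the empty vector, the hairpin vector against the tRNA vector, or both CU1276 vectors against the empty vector. The smallest limma adjusted p among them was 0.9999, 1, 0.9997 and 0.9999 in that order. The background was the same, since 0% of all probe sets passed in each of the 4 comparisons. At an unadjusted limma p under 0.05 there were 1 of 20 with the hairpin vector (2.65% of all probe sets), 2 of 20 with the tRNA vector (3.78% of all), 2 of 20 between the vectors (3.88% of all) and 2 of 20 for both vectors together (3.01% of all). The arrays of the groups compared did not overlap for 0 of 20 with the hairpin vector (2.12% of all), 2 of 20 with the tRNA vector (2.6% of all), 0 of 20 between the vectors (2.63% of all) and 0 of 20 for both vectors together (0.287% of all). The 7 cases with an unadjusted p under 0.05 came from 1 probe set each of RPA1, NABP1 and NABP2, and they are described first. Comparisons of either vector with the empty vector share the same 4 empty vector arrays and are not independent.

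**Figure D1:**
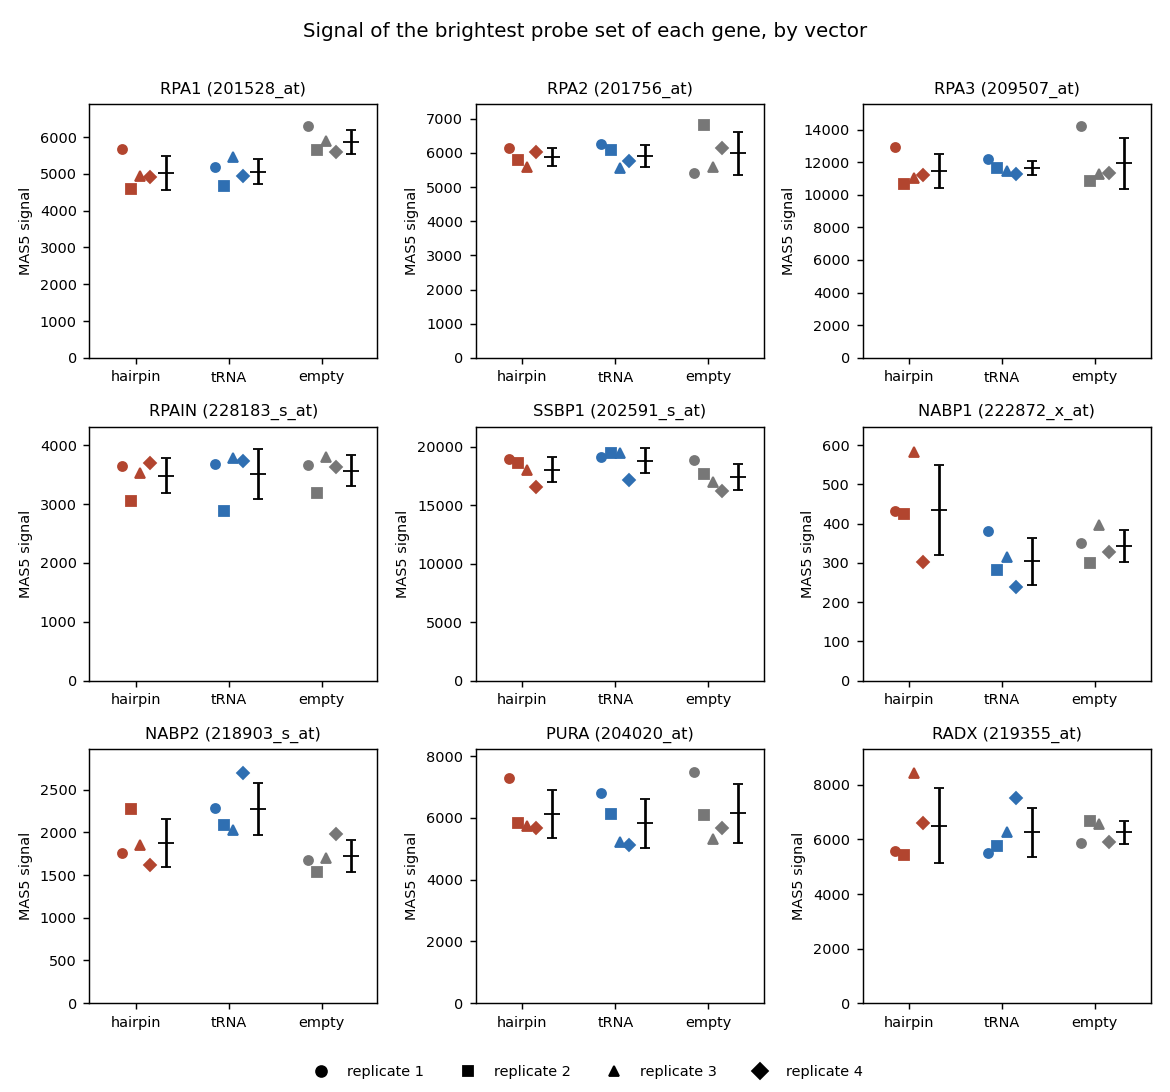
MAS5 signal on a linear axis from 0 (vertical) by vector (horizontal), for the brightest probe set of each of the 9 genes; symbols are single arrays by replicate number and bars are the mean and SD of 4 arrays. The tRNA vector arrays of RPA1 (4662 to 5452) lie below those of the empty vector (5587 to 6297), those of NABP2 (2022 to 2691) lie above (1530 to 1975 with the empty vector), and the vectors overlap for the other genes.

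RPA1 is the transcript on which the study's question turns, namely whether a source of CU1276 goes with less of it. The signal of its brightest probe set, 201528_at, was 5679, 4587, 4939.9 and 4922 with the hairpin vector, 5177, 4662, 5452 and 4951 with the tRNA vector, against 6297, 5662, 5898 and 5587 with the empty vector, in replicates 1 to 4. Every tRNA vector array lay below every empty vector array, 3 of 4 hairpin vector arrays did, and together 7 of 8 arrays with a CU1276 vector lay below the lowest empty vector array. Group means were 5032 ± 461 with the hairpin vector, 5061 ± 335 with the tRNA vector, against 5861 ± 319.6 with the empty vector (SD, n = 4 each). Each array sums over all cells of a culture, so a smaller share of cells that express RPA1 and less RPA1 transcript per cell cannot be told apart.

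The log2 fold change of 201528_at against the empty vector was -0.22 ± 0.082 with the hairpin vector and -0.21 ± 0.082 with the tRNA vector (limma SE), which are folds of 0.857 and 0.863. Both vectors as 1 group stood at -0.22 ± 0.071, with a 95% interval of -0.37 to -0.07. By exact permutation of arrays, two-sided, the p was 0.0857 for the hairpin vector, 0.0286 for the tRNA vector, which is the smallest that 4 against 4 arrays can give, and 0.0121 for both vectors together. After Benjamini-Hochberg adjustment over the 8 exact tests made on RPA1 these were 0.229, 0.114 and 0.0970, so none passed 0.05. The exact p for the tRNA vector was 0.0571 without any 1 of the 4 empty vector arrays. Arrays that do not overlap with a lower tRNA vector signal made up 1.43% of all tested probe sets, and this was 1 of the 20 here.

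Within replicate numbers 1 to 4 the log2 difference of 201528_at was -0.15, -0.30, -0.26 and -0.18 for the hairpin vector and -0.28, -0.28, -0.11 and -0.17 for the tRNA vector, each against the empty vector of that number. All 8 differences were negative, and at the level of control RNAs shared by numbers 3 and 4 the mean was -0.22 and -0.14. Between the vectors the log2 fold change of hairpin over tRNA was -0.01 ± 0.082, with a 95% interval of -0.18 to 0.16. The sign of that value turned with quantile normalization.

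The other RPA1 probe sets were not separated between vectors. The signal of 201529_s_at was 3352, 3477, 4155 and 4039.8 with the hairpin vector, 3689, 4764, 5058 and 4340.1 with the tRNA vector, against 3299, 4251, 4970.0 and 4784 with the empty vector, in replicates 1 to 4. The 3 groups overlapped, and the arrays numbered 1 were the lowest of each group. Its log2 fold change was -0.19 ± 0.13 with the hairpin vector and 0.05 ± 0.13 with the tRNA vector, each against the empty vector. Within replicate numbers 1 to 4 the hairpin vector difference was 0.02, -0.29, -0.26 and -0.24, and that of the tRNA vector was 0.16, 0.16, 0.03 and -0.14. Between the vectors the log2 fold change was -0.24 ± 0.13 for hairpin over tRNA, with a difference of that sign in 4 of 4 replicate numbers and an exact permutation p of 0.114, from a test that does not use the numbers.

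The weakest RPA1 probe set, 236675_at, with means of 142 ± 40.8, 149.8 ± 29.6 and 139 ± 15.7 with the hairpin, tRNA and empty vectors (SD, n = 4 each), had a 95% interval of -0.54 to 0.54 for the hairpin vector and -0.45 to 0.64 for the tRNA vector against the empty vector. Over the 12 arrays the log2 signals of 201528_at correlated with those of 201529_s_at at r = -0.07 and with those of 236675_at at r = -0.34, a description of arrays that share vectors and replicate numbers. All 3 RPA1 probe sets had a negative log2 fold change with the hairpin vector, that of 236675_at being nearly 0 and of the other sign with quantile normalization, whereas with the tRNA vector 1 of 3 had. Averaged over the 3 probe sets the log2 fold change of RPA1 was -0.14 ± 0.078 with the hairpin vector and -0.02 ± 0.078 with the tRNA vector, against -0.22 and -0.21 for the brightest alone (limma adjusted p = 0.9997 and 0.9998 for the averages).

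**Figure D2:**
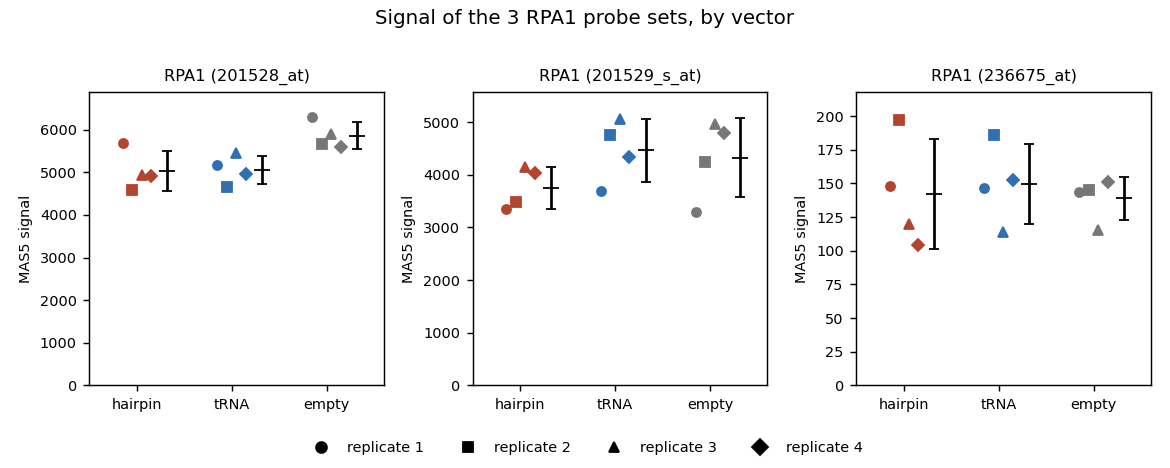
MAS5 signal on linear axes from 0 (vertical) by vector (horizontal) for the 3 RPA1 probe sets; symbols are single arrays by replicate number and bars are the mean and SD of 4 arrays. With the empty vector the arrays of 201528_at (5587 to 6297) sit above all tRNA vector arrays, while those of 201529_s_at (3299 to 4970.0) overlap the tRNA vector arrays (3689 to 5058).

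NABP2 was the other gene whose arrays did not overlap in a comparison. Its product, also called hSSB1, binds single strands at DNA breaks within a SOSS complex. The signal of its probe set 218903_s_at was 1755, 2273, 1854 and 1616 with the hairpin vector, 2280.3, 2088, 2022 and 2691 with the tRNA vector, against 1676, 1530.5, 1694 and 1975 with the empty vector, in replicates 1 to 4. Every tRNA vector array lay above every empty vector array, while 1 of 4 hairpin vector arrays did. Non-overlapping arrays with a higher tRNA vector signal made up 1.17% of all tested probe sets, and 1 of the 20 here.

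Against the empty vector the log2 fold change of NABP2 was 0.12 ± 0.12 with the hairpin vector and 0.40 ± 0.12 with the tRNA vector, a fold of 1.32 for the tRNA vector with a 95% interval of 0.13 to 0.66 on the log2 scale. The unadjusted limma p was 0.350 and 0.00595, and the limma adjusted p was 0.9999 and 1. Within replicate numbers 1 to 4 the tRNA vector difference was 0.44, 0.45, 0.26 and 0.45, and that of the hairpin vector was 0.07, 0.57, 0.13 and -0.29. The hairpin vector over the tRNA vector stood at -0.28 ± 0.12 (limma adjusted p = 0.9997, unadjusted 0.0400), with 3 of 4 hairpin vector arrays below the lowest tRNA vector array. NABP2 has 1 probe set on this array, so agreement between probe sets could not be examined.

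RPA1 and NABP2 are the genes whose arrays separated between the tRNA and empty vectors, in opposite directions, so the windows around their transcription starts are shown from RefSeq (GRCh38.p14). The table of promoters held 5 of the 9 genes, and each window runs from 250 bases before to 50 bases after a start. The RPA1 window is chr17:1829755-1830054 and the NABP2 window chr12:56224092-56224391, both on the plus strand. Capitals mark matches on either strand to a CCAAT box (CCAAT), a GC box (GGGCGG) or an E-box (CACGTG).
RPA1 promoter: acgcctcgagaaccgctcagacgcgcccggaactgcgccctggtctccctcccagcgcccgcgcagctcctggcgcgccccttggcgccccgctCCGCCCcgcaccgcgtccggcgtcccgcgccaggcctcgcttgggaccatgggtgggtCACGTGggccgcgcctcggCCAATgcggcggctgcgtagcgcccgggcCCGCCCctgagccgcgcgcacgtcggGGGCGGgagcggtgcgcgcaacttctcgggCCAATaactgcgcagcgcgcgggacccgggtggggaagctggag
NABP2 promoter: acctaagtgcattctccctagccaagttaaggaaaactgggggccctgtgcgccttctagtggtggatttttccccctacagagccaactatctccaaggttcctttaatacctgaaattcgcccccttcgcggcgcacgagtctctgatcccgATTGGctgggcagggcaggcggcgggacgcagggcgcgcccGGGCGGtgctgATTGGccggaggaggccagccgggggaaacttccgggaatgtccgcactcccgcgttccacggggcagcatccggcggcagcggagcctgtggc
The RPA1 window was 77.7% G and C and held 2 CCAAT boxes, 3 GC boxes and 1 E-box, and the NABP2 window was 63.7% G and C and held 2 CCAAT boxes and 1 GC box. Of 35116 windows of the same length, 34.6% held a CCAAT box, 45% a GC box and 7.26% an E-box. A TATA box (TATAAA, in 11.5% of windows) and an E2F site (TTTCGCGC or TTTGGCGC, in 1.15%) were searched too, and these letters were in neither window. No motif overlapped another, and a match is a stretch of letters and not a measured binding site.

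NABP1, the close relative of NABP2 also called hSSB2, takes the same place in another SOSS complex. The signal of its brightest probe set, 222872_x_at, was 432, 424, 582 and 302 with the hairpin vector, 381, 281, 314 and 239 with the tRNA vector, against 349.5, 299, 396 and 326 with the empty vector, in replicates 1 to 4. Of the hairpin vector arrays 3 of 4 lay above every array of both other vectors, and the array of replicate 4 lay among them. The hairpin vector over the tRNA vector stood at 0.50 ± 0.20 on the log2 scale, a fold of 1.41 (limma adjusted p = 0.9997, unadjusted 0.0266), with within-number differences of 0.18, 0.59, 0.89 and 0.33. The log2 fold change over the empty vector was 0.31 ± 0.20 with the hairpin vector and -0.19 ± 0.20 with the tRNA vector. The hairpin vector value was 0.16 without its replicate 3 and 0.48 without its replicate 4, and the tRNA vector value was -0.30 without its replicate 1, -0.08 without its replicate 4 and -0.11 without empty vector replicate 3.

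The dimmer NABP1 probe sets were less precise. For 233085_s_at the mean was 204 ± 84.1 with the hairpin vector, 166 ± 65.4 with the tRNA vector, against 168 ± 38.8 with the empty vector (SD, n = 4 each), and the log2 fold change of hairpin over tRNA was 0.31 ± 0.36. For 219334_s_at the means were 74.3 ± 29.7, 47.4 ± 8.28 and 45.2 ± 38.4 in the same order, and that log2 fold change was 0.58 ± 0.55. All 3 NABP1 probe sets thus had a positive value for the hairpin vector over the tRNA vector and over the empty vector, and 1 of 3 had for the tRNA vector over the empty vector. Averaged over the 3 probe sets NABP1 stood at 0.49 ± 0.21 with the hairpin vector against the empty vector (limma adjusted p = 0.9997, unadjusted 0.0376). Against the tRNA vector it stood at 0.46 ± 0.21 (limma adjusted p = 0.9996, unadjusted 0.0484). The first average joins 0.31 for 222872_x_at (limma unadjusted p = 0.143), 0.21 ± 0.36 for 233085_s_at and 0.95 ± 0.55 for 219334_s_at. The last had a geometric mean signal of 49.1, near the filter at 43.3. The share of all genes whose average had an unadjusted p under 0.05 was not counted.

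RPA2, the subunit that is phosphorylated when replication stalls, had signals of 6154, 5778, 5579 and 6015 with the hairpin vector, 6269.9, 6096, 5567 and 5751 with the tRNA vector, against 5415, 6805, 5586 and 6151 with the empty vector. The lowest and the highest of the 12 values both came from the empty vector, so the other groups lay inside its range. Relative to the empty vector, the log2 fold change was -0.02 ± 0.081 with the hairpin vector and -0.01 ± 0.081 with the tRNA vector, with 95% intervals of -0.20 to 0.15 and -0.19 to 0.16.

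RPA3, the small subunit, had signals of 12939, 10632, 11040.2 and 11231 with the hairpin vector, 12201, 11661, 11432 and 11262 with the tRNA vector, against 14209.8, 10839.8, 11291 and 11336 with the empty vector. The arrays numbered 1 were the highest in each group and lay above all 9 other arrays. Relative to the empty vector, the log2 fold change was -0.05 ± 0.089 with the hairpin vector and -0.03 ± 0.089 with the tRNA vector. Without the 3 arrays numbered 1, an alternative chosen after the data were seen, the tRNA vector value was 0.04.

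RPAIN, the carrier of RPA into the nucleus, has 7 probe sets. Its brightest, 228183_s_at, had means of 3482 ± 295 with the hairpin vector, 3513 ± 426 with the tRNA vector, against 3569 ± 269 with the empty vector (SD, n = 4 each). In each group the array numbered 2 was the lowest (3052 with the hairpin, 2877 with the tRNA and 3179.5 with the empty vector), and the other 9 arrays lay between 3531 and 3799.7. The log2 fold changes against the empty vector were -0.04 ± 0.10 with the hairpin vector and -0.03 ± 0.10 with the tRNA vector.

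The other tested RPAIN probe sets disagreed in sign. For 1556088_at the log2 fold change was 0.06 ± 0.21 with the hairpin vector and -0.06 ± 0.21 with the tRNA vector, and for 1558719_s_at it was -0.12 ± 0.31 and -0.21 ± 0.31, each against the empty vector. For 216962_at, at -0.83 ± 0.70 and 0.24 ± 0.70, the hairpin vector value rests on the array of replicate 3, whose signal was 6.12 while the other 3 had 63.0, 84.1 and 73.1. Without that array the value was 0.07. Of the 4 tested RPAIN probe sets 3 had a negative value with either vector, and they were not the same 3. The 3 untested RPAIN probe sets ranged from 3.22 to 144 over the arrays.

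SSBP1, the single-strand coat of mitochondrial DNA, had signals in its brightest probe set, 202591_s_at, of 18972, 18617, 18015 and 16597 with the hairpin vector, 19113, 19477, 19520.0 and 17201 with the tRNA vector, against 18853, 17709, 17031 and 16236 with the empty vector. In each group the array numbered 4 was the lowest, and within each of the 4 numbers the tRNA vector array was the highest and the empty vector array the lowest. The log2 fold changes against the empty vector were small, at 0.05 ± 0.071 with the hairpin vector and 0.11 ± 0.071 with the tRNA vector, with 95% intervals of -0.10 to 0.20 and -0.04 to 0.26. For 214060_at they were -0.22 ± 0.13 and -0.02 ± 0.13, and for the weakest of the 3, 1562442_a_at, 0.34 ± 0.42 and 0.29 ± 0.42. The 3 SSBP1 probe sets thus did not share a sign with either vector.

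PURA, which binds purine-rich single strands in promoters and in RNA, had 3 tested probe sets, of which 204020_at set the arrays numbered 1 apart. The signal of 204020_at was 7283, 5837, 5740.4 and 5661 with the hairpin vector, 6789, 6137, 5232 and 5114 with the tRNA vector, against 7482, 6101, 5309.7 and 5673 with the empty vector, in replicates 1 to 4. The arrays numbered 1 lay above all 9 other arrays. The probe set 204021_s_at was at 688, 748 and 894 in the arrays numbered 1 of the hairpin, tRNA and empty vectors, against 762 to 1377 in the other 9, so there the arrays numbered 1 were at the low end.

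Across the 12 arrays log2 signals of 204020_at correlated with those of 229167_at at r = 0.83 and with those of 204021_s_at at r = -0.79, and 229167_at with 204021_s_at at r = -0.82. These are descriptions of arrays that share replicate numbers and control RNA levels. Arrays numbered 1 that did not overlap the other 9 occurred in 12.9% of all tested probe sets and in 3 of the 20 here, which were PURA 204020_at and RPA3 (higher, 5.6% of all) and RPAIN 1556088_at (lower, 7.26% of all). The log2 fold changes of PURA 204020_at against the empty vector were 0.0017 ± 0.12 with the hairpin vector and -0.08 ± 0.12 with the tRNA vector. Those of 229167_at were -0.07 ± 0.12 and -0.15 ± 0.12, and those of 204021_s_at 0.11 ± 0.24 and 0.06 ± 0.24.

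**Figure D3:**
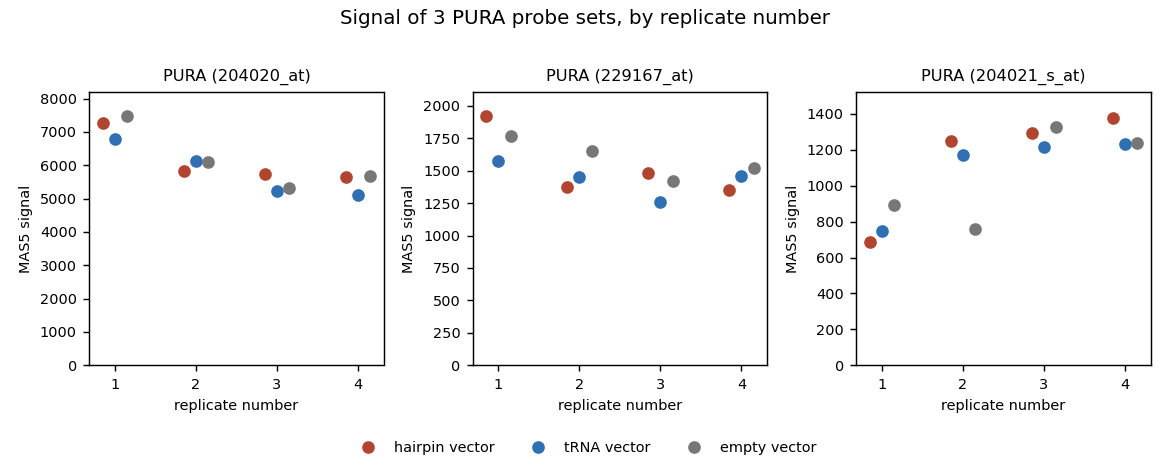
MAS5 signal on linear axes from 0 (vertical) by replicate number (horizontal) for 3 PURA probe sets; each point is 1 array, coloured by vector. The arrays numbered 1 are the highest for 204020_at (6789 to 7482, against 5114 to 6137 in the others) and at the low end for 204021_s_at (688 to 894, against 762 to 1377 in the others).

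RADX, which acts at replication forks, had signals in 219355_at of 5567, 5444, 8442 and 6585 with the hairpin vector, 5506, 5760.0, 6262 and 7505 with the tRNA vector, against 5883, 6693, 6555 and 5919 with the empty vector. Both CU1276 vectors spanned more than the empty vector, with an SD of 1386 and 889 against 421. The log2 fold changes against the empty vector were 0.04 ± 0.13 with the hairpin vector and -0.01 ± 0.13 with the tRNA vector. Its other probe set, 215803_at, was dim (1.73 to 64.2 over the arrays) and was not tested.

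**Figure D4:**
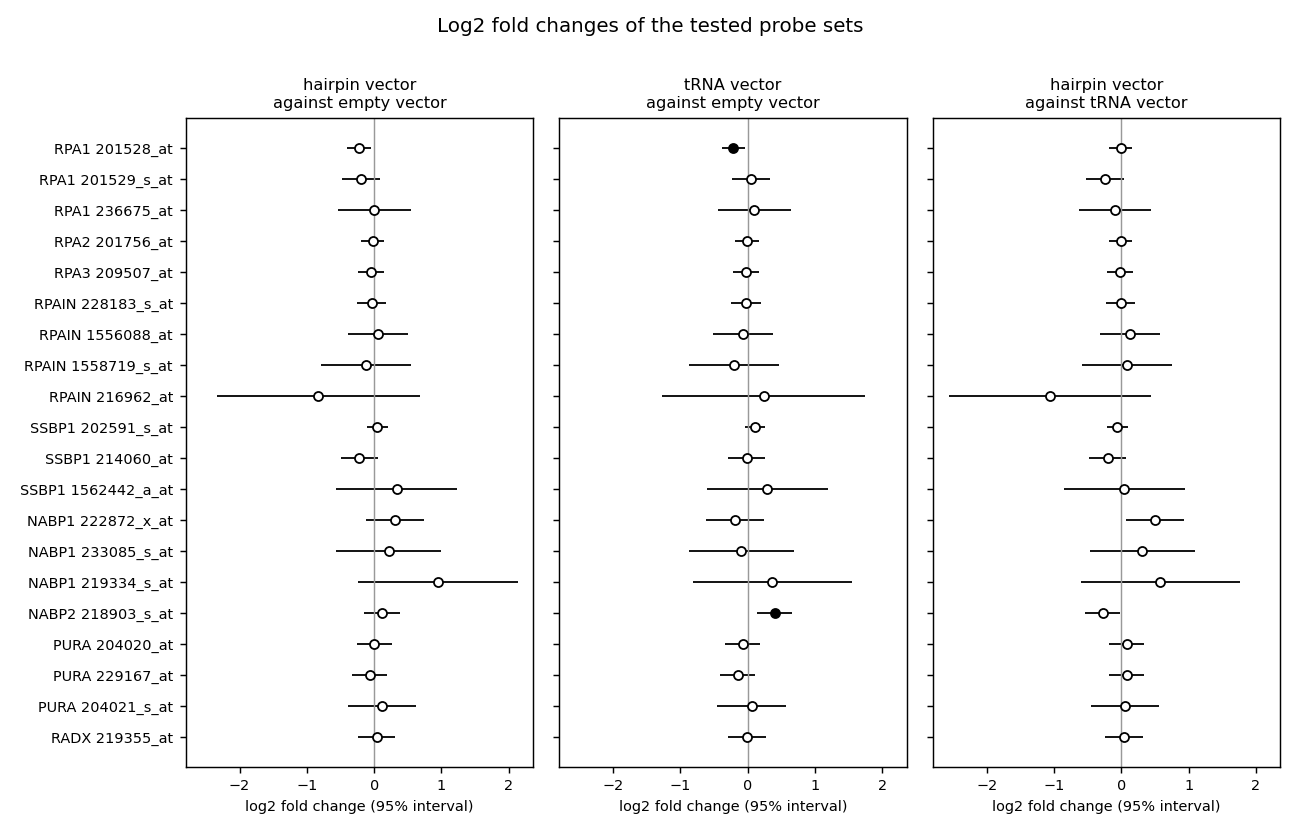
Log2 fold change (horizontal) with its 95% limma interval for the 20 tested probe sets (vertical) in 3 comparisons; filled points mark probe sets whose arrays did not overlap. The filled points are RPA1 201528_at at -0.21 and NABP2 at 0.40, both for the tRNA vector against the empty vector.

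Among the 20 tested probe sets 10 had a negative and 10 a positive log2 fold change with the hairpin vector (median 0.00085), against a median of 0.0031 and 49.2% negative over all tested probe sets. With the tRNA vector 12 were negative and 8 positive (median -0.015), against a median of -0.00035 and 50.1% negative over all. For the hairpin vector over the tRNA vector the split was 10 and 10 (median 0.018), against 0.0051 and 49.0% over all. Of the 5 genes with more than 1 tested probe set, those whose probe sets shared a sign were RPA1 and NABP1 with the hairpin vector, none with the tRNA vector, and RPA1, NABP1 and PURA between the vectors. With the hairpin vector RPA1 counts here only through 236675_at, at -1.3e-05. The share of all genes whose probe sets share a sign was not counted, so these counts have no background.

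Partners of these proteins were examined as 4 lists, each gene by its brightest tested probe set. Of 34 tested RPA partners in replication, checkpoint signalling and repair, 23 had a negative log2 fold change with the hairpin vector (median -0.031, against 0.0042 over all 13952 tested genes), 17 with the tRNA vector (median -0.0087, against 0.0030) and 20 between the vectors (median -0.023, against 0.0028). In these 3 comparisons 0 of the 34 passed limma, and 0 had an unadjusted p under 0.05. With the smallest p were RAD52, which anneals RPA-coated strands (0.30 ± 0.16), and TONSL, which acts in the repair of broken forks (0.41 ± 0.23), with the hairpin vector. For RAD52 1 of 3 tested probe sets had that sign. With the tRNA vector they were TONSL (0.45 ± 0.23) and CLSPN, an adaptor of the checkpoint kinase CHEK1 (0.40 ± 0.23). Between the vectors they were ETAA1, which RPA recruits to activate the kinase ATR (-0.48 ± 0.25), and PRIM2, the large subunit of primase (0.31 ± 0.18). For both vectors together 0 of the 34 passed limma and 1 had an unadjusted p under 0.05 (3.01% of all tested probe sets). This was TONSL (0.43 ± 0.20), followed by HELB, a helicase that RPA recruits (-0.72 ± 0.44). The share beside it is over all probe sets and was not counted over genes by their brightest probe set. The sign given was shared by 2 of 3 tested probe sets of HELB and, with the tRNA vector, by 3 of 4 of CLSPN.

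The partners of NABP1 and NABP2 in the SOSS complexes and in break repair gave 5 of 6 negative values with the hairpin vector (median -0.044) and 6 of 6 with the tRNA vector (median -0.12), where 48.8% and 49.3% of all tested genes were negative. Of these 6 genes 0 passed limma in either comparison and 0 had an unadjusted p under 0.05, the smallest p being those of the nuclease MRE11 (-0.10 ± 0.11) and INTS6 (-0.083 ± 0.12) with the hairpin vector, and of MRE11 (-0.20 ± 0.11) and INTS3, the scaffold of SOSS (-0.23 ± 0.16), with the tRNA vector. For MRE11 1 of 3 tested probe sets had that sign in each, and for INTS6 3 of 4 had it with the hairpin vector. Between the vectors INTS3 stood at 0.24 ± 0.16 and MRE11 at 0.10 ± 0.11, with 2 of 3 tested MRE11 probe sets of that sign.

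Of 10 partners of SSBP1 in mitochondrial DNA upkeep, 8 had a positive value with the hairpin vector (median 0.049) and 8 with the tRNA vector (median 0.079), and 0 passed. Over all 13952 tested genes 48.8% and 49.3% were negative, with medians of 0.0042 and 0.0030. Both counts use the same 4 empty vector arrays. With the smallest p were the mitochondrial protease LONP1 (0.12 ± 0.11) and the helicase TWNK (0.17 ± 0.15) with the hairpin vector, the DNA ligase LIG3 (0.17 ± 0.091) and TWNK (0.28 ± 0.15) with the tRNA vector, and LIG3 (-0.13 ± 0.091) and the polymerase POLG (-0.16 ± 0.15) between the vectors. For LIG3 4 of 6 tested probe sets had that sign with the tRNA vector and 5 of 6 between the vectors. Of 18 other proteins that bind single-stranded nucleic acids, 8 had a positive value with the hairpin vector and 9 with the tRNA vector, and 0 passed. At an unadjusted p under 0.05 there was 1 of 18 with the hairpin vector (2.65% of all tested probe sets), 0 of 18 with the tRNA vector (3.78% of all) and 1 of 18 for both vectors together (3.01% of all), the 1 being SSBP3 each time. These shares too are over probe sets and not over genes. The values with the smallest p were those of SSBP3 (0.26 ± 0.12) and SSBP2 (0.22 ± 0.17), partners of LIM domain factors, with the hairpin vector, of STN1 (-0.34 ± 0.19) and POT1 (-0.16 ± 0.090), which bind telomeric single strands, with the tRNA vector, and of FUBP1 (0.16 ± 0.088) and HNRNPK (-0.15 ± 0.10) between the vectors. For SSBP3 1 of 3 tested probe sets had that sign, for SSBP2 3 of 5 and for HNRNPK 1 of 2.

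Over the 12 arrays, the genes whose brightest probe set was most like RPA1 201528_at, out of 13943 other tested genes, were ALAS1 (Pearson r = 0.95), EIF2B4 (0.86), BUD13 (0.86), TOP3A (0.85) and MTNAP1 (0.85). For ALAS1 the log2 fold change was -0.13 with the hairpin vector and -0.15 with the tRNA vector against the empty vector. ALAS1 was picked by likeness to RPA1 on these same arrays, so its values do not add to those of RPA1. The arrays behind these values share vectors and replicate numbers. The other RPA subunits, which were not in that ranking, correlated with 201528_at at r = -0.09 for RPA2 and 0.59 for RPA3.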

How the data were processed

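The data are MAS5 signal intensities of 54675 probe sets on 12 arrays of biotin-labelled RNA, 1 column per array. The authors computed these intensities with MAS5, per the submitters' processing notes, which give no version. Deposited intensities had been scaled, since every array had the same 2% trimmed mean (500.1). A genome build is not given in the sources used here.

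Gene symbols came from the array's annotation, checked by Entrez identifier against RefSeq (0 symbols updated). Tests used log2 signals, without an offset. The 62 control probe sets and 21845 dim ones (mean log2 under the 40th percentile) were left out, and 32768 were tested. A model of 3 group means was fitted with limma 3.58.1 in R 4.3.3 (eBayes with an intensity trend), two-sided, adjusted by Benjamini-Hochberg at 0.05, and tested on simulated data. There, with noise drawn separately for each array, it recovered 12% of log2 changes of 0.5 added to the tRNA vector. It recovered 36% of those of -1, 42% of those of 1 and 70% of those of 2 (50 probe sets each). Changes of 0.5, -1 and 1 were thus mostly missed there, and a lack of calls does not show a lack of change. The changed probe sets were drawn from all 32768 tested, whose median SE was 0.22. That of RPA1 201528_at was 0.082, so these shares need not hold for the brighter members. Log2 fold changes are given ± the SE from limma. RPA1 was also compared by exact permutation of arrays. Named partner genes are the 2 with the smallest p in each list and comparison. The members and lists were chosen with earlier results of these data known. The number of arrays limits the precision. Alternatives changed the normalization, filter, offset, variance prior, blocks, test, arrays and probe set.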

Additional observations from a re-analysis of the deposited data

Results flagged for a closer look

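In each group of 4 arrays, the highest or lowest signal was compared with the nearest of the others as a share of the group's range (Dixon's ratio, at its 95% critical value). Of 78 groups, 26 probe sets by 3 vectors, 9 held an array past it, where chance gives about 1 in 20. Of the 9, 4 were arrays numbered 1, 3 numbered 2 and 2 numbered 3, and 5 belonged to probe sets that passed the brightness filter. With the hairpin vector the PURA signals set apart were 7283 (204020_at, replicate 1), 37.3 (the untested 241685_x_at, replicate 3) and 163 (the untested 213806_at, replicate 2). With the tRNA vector they were 2877 for RPAIN (228183_s_at, replicate 2), 748 for PURA (204021_s_at, replicate 1) and 110.2 for PURA (the untested 213806_at, replicate 2). With the empty vector they were 14209.8 for RPA3 (replicate 1), 95.1 for RPAIN (the untested 228288_at, replicate 1) and 102 for NABP1 (219334_s_at, replicate 3).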

How the results depend on the processing

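Over 1684 alternative values of the 20 tested probe sets in 4 comparisons, 0 passed limma after adjustment (smallest adjusted p = 0.386). Of the 80 log2 fold changes, 48 turned sign under at least 1 alternative. The 7 whose 95% interval left out 0, those of RPA1 201528_at, NABP1 222872_x_at and NABP2, kept their sign under all that were run. These 7 were picked for their distance from 0 on these same arrays. Changes of filter, variance prior, block or test leave a log2 fold change as it is, so the kept signs are not separate support. With quantile normalization 6 signs turned, 5 of them between the vectors. For RPA1 201528_at the tRNA vector value, -0.21, ran from -0.25 to -0.17 without single arrays, and was -0.02 as the mean of the RPA1 probe sets.

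Over all probe sets limma called 4 with the tRNA vector, 3 with the hairpin vector and 8 between the vectors with the control RNA level as a block, against 0 each without it. With the replicate block it called 6 between the vectors and 0 in the other comparisons, and without the 3 arrays numbered 1, chosen after the data were seen, 1 between the vectors. No member was among these. Deviations of arrays from their group means correlated over probe sets at r = 0.099 to 0.36 for the same number, over 0.1 in 11 of 12 pairs. For arrays of different number and vector r was -0.23 to 0.15, over 0.1 in 4 of 36 pairs. Arrays with the same number were thus more alike, but the labels do not pair the samples. The main model does not use the numbers. With the replicate block the unadjusted p of RPA1 201528_at was 0.00181 with the hairpin vector and 0.00257 with the tRNA vector (adjusted 0.833 and 0.391). For RPA1 201529_s_at it was 0.0173 with the hairpin vector and 0.00395 between the vectors (adjusted 0.899 and 0.386), against 0.169 and 0.0858 without the block. With the block the limma unadjusted p was under 0.05 for other members too. With the tRNA vector these were NABP2 (0.00362) and SSBP1 202591_s_at (0.0392). Between the vectors they were NABP1 222872_x_at (0.00599) and NABP2 (0.0287). Over all tested probe sets, more were under 0.05 with the tRNA vector when the block was used. Lower p with the block were thus not particular to RPA1.

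The exact p of RPA1 201528_at ran from 0.0286 to 0.114 with the hairpin vector and from 0.0286 to 0.0571 with the tRNA vector without single arrays. It was 0.0286 with quantile normalization for the hairpin vector, and 0.1, the smallest possible, for the tRNA vector without the arrays numbered 1. Between the vectors, where the sign turned, it was 0.771 with quantile normalization and 0.314 to 1 without single arrays. Of 5 genes with several tested probe sets, the count whose probe sets shared a sign was 2 with the hairpin vector, 1 with quantile normalization or an offset of 16, and 1 to 2 without single arrays. With the tRNA vector it was 0, 2 with the filter at the 60th percentile, and 0 to 2 without single arrays. Between the vectors it was 3, 4 with the filter at the 60th percentile, 2 with quantile normalization, and 1 to 3 without single arrays. For both vectors together it was 2, 3 with the filter at the 60th percentile, 1 without the arrays numbered 1, and 0 to 2 without single arrays. The cause of these shifts was not tested, and the same counts over all genes were not made.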
